A study of Mus musculus with 6 samples.

Results

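The Ankrd13 family of the mouse consists of 4 paralogous genes, Ankrd13a, Ankrd13b, Ankrd13c and Ankrd13d, and was followed here in fully grown oocytes with and without Prdm10. The 4 genes were found by symbol among the 27179 gene identifiers of the deposited counts, and all 4 were among the 14957 genes with enough counts to be tested. The family was chosen by its name and also by a measured value, because the large difference of Ankrd13a between knockout and wildtype was among the results already known when it was picked. The contrast between genotypes is therefore given for the 4 genes as a description, with an interval and without a test.

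The samples were germinal vesicle (GV) oocytes, fully grown but not yet resumed in meiosis. In the knockout group, called maternal Prdm10 knockout by the labels, floxed exon 5 of Prdm10 had been removed by a Cre recombinase driven by Zp3, a promoter of growing oocytes, and the other group was labelled wildtype. Each genotype had 3 libraries, each from a pool of about 10 oocytes, described as biological replicates. The labels used here do not say whether the pools came from separate females, nor the age or strain of the mice, so a p-value reads the spread between pools, which may be technical.

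ANKRD13 proteins combine ankyrin repeats, which mediate protein contacts, with further motifs near the other end. ANKRD13A, ANKRD13B and ANKRD13D carry ubiquitin-interacting motifs (UIMs), bind ubiquitinated receptors such as the epidermal growth factor receptor at the plasma membrane and on endosomes, and take part in their internalisation and sorting with the ATPase VCP. ANKRD13C lacks these motifs and sits at the endoplasmic reticulum, where it acts on the maturation of G protein-coupled receptors.

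The libraries held between 22492228 and 38831227 counts and detected between 17973 and 19307 genes. Prdm10 itself had 2.80, 3.82 and 3.05 CPM in the knockout and 10.4, 23.1 and 23.0 CPM in the wildtype, where CPM is the count scaled to the library size. It was lower in the knockout by edgeR's quasi-likelihood test with Benjamini-Hochberg adjustment (log2 fold change -2.54, SE 0.325, adjusted p = 0.00436). Counting per gene does not separate transcripts with and without the deleted exon. Wildtype replicate 1 stood apart: its Spearman correlations with the other wildtype libraries were 0.975 and 0.976, against 0.996 between those libraries and 0.995 to 0.997 among the knockout libraries. It also had the lowest Prdm10 of the wildtype libraries, and without it the log2 fold change of Prdm10 was -2.83. Values that rest on this library are therefore also given without it.

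Markers of the oocyte summed to between 33817 and 37117 CPM in the knockout and between 27358 and 34100 CPM in the wildtype over 12 genes, among them Zp3 and Gdf9. The 14 markers of granulosa and cumulus cells summed to 76.6 to 91.2 CPM and 85.7 to 95.1 CPM, most of it Cyp19a1 (25.1 to 30.6 and 27.1 to 47.3 CPM), Nr5a2 (20.3 to 21.2 and 17.1 to 23.6), Inha (10.2 to 18.6 and 11.1 to 17.1) and Kitl (7.58 to 8.47 and 9.78 to 10.1). Ptx3 was at 0 in every library and Foxl2 at no more than 0.913 CPM. Without wildtype replicate 1, Cyp19a1 had a log2 fold change of -0.64. The 9 markers of theca and stroma summed to 4.69 to 7.47 CPM and 4.07 to 9.65 CPM. The 12 measured markers of blood, immune and endothelial cells summed to 118 to 121 CPM in the knockout and 37.0 to 83.0 CPM in the wildtype, or 81.0 to 83.0 CPM without wildtype replicate 1. Most of that sum was Pecam1, at 103 to 105 CPM in the knockout and at 30.4 CPM in wildtype replicate 1 and 75.6 and 75.7 CPM in the other wildtype libraries, and Cd68 was at 10.6 ± 0.407 and 2.10 ± 1.33 CPM (SD, n = 3), while Hba-a1 and Cdh5 were at 0 in every library. The part of these markers in the results below was not tested.

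The promoters of the 4 genes were read from RefSeq (GRCm38.p6) as windows of 300 bases, 250 before and 50 after an annotated start. The 4 genes matched 6 such windows. Any relation of promoter motifs to the level or change of these genes was not tested. A stretch of 30 bases around a motif of each gene is shown. Each is written 5′ to 3′ on the strand of its gene, and capitals mark the GC box GGGCGG (or its reverse complement CCGCCC) of SP and KLF factors and, in Ankrd13c, the cyclic AMP response element TGACGTCA.
Ankrd13a, chr5:114774917-114774946, plus strand: cttccctgttcgGGGCGGttcggccggcag
Ankrd13b, chr11:77489717-77489746, minus strand: cgaggacgcccgCCGCCCgcaccacgccgg
Ankrd13c, chr3:157946941-157946970, plus strand: gcgcagctgagTGACGTCAcgtccgatatc
Ankrd13d, chr19:4283141-4283170, minus strand: ctccatgtagccCCGCCCccagatccccgc
Counted from the RefSeq start of the window it was found in, the marked motif began at position -19 in Ankrd13a (start at base 114774948), -56 in Ankrd13b (77489678), -48 in Ankrd13c (157947000) and -21 in Ankrd13d (4283137). The starts used for Ankrd13b, Ankrd13c and Ankrd13d lie inside the gene intervals given below, so these 3 stretches fall within the intervals.

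The GC box was present in a window of Ankrd13a, Ankrd13b and Ankrd13d, the 3 members with UIMs, and its letters were not in the window of Ankrd13c. It is a common motif, found on either strand in 35.7% of all 32851 windows of that length. The cyclic AMP response element was in the window of Ankrd13c alone among the 4 genes, and in 1.79% of all windows. The letters of 8 further motifs were in no window of the family. These were the TATA box TATAAA (13.6% of all windows), CCAAT (37.4%), the ETS core CCGGAAG (8.86%), the NRF1 site CGCATGCGC (1.75%), the CTCGCGAG element (0.919%), the YY1 site AAGATGGCG (1.40%), the E-box CACGTG (7.15%) and the ZNF143 element ACTACAATT (0.393%). Of the motifs searched, CACGTG and TGACGTCA share the core ACGT.

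The start of Ankrd13a lies in CpG-dense sequence. Its windows had a GC content of 72.7% and 79.7% and held 47 and 51 CpG dinucleotides, more than 98.6% and 99.3% of all windows, whose median was 7. Ankrd13b had windows of 60.7% and 83.7% GC with 17 and 51 CpG, Ankrd13d had 69.0% GC with 25 CpG, and Ankrd13c had 51.0% GC with 12 CpG. CpG counts as high as those of Ankrd13a were thus found in the denser window of Ankrd13b. Any relation of CpG density to the difference between genotypes was not tested.

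Ankrd13a (Entrez 68420, chr5:114774948-114805821, plus strand) was the family's main transcript in wildtype oocytes and was 23.0-fold lower in the knockout. The deposited counts were 392, 478 and 452 in the knockout libraries and 10217, 8118 and 6092 in the wildtype libraries. In CPM this was 11.6, 12.8 and 12.0 against 245, 313 and 279. The knockout libraries lay close together (12.1 ± 0.618 CPM, SD, n = 3), the wildtype libraries spread more widely (279 ± 33.7 CPM, n = 3), and the groups did not overlap. The fitted log2 fold change was -4.53 (SE 0.148, 95% interval -4.87 to -4.18), and it was -4.61 without wildtype replicate 1. The knockout kept 4.34% of the wildtype level. In a pool of oocytes, fewer cells that hold the transcript and less of it in each cell cannot be told apart.

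Among the 1676 genes called between the genotypes at an adjusted p under 0.05 (11.2% of those tested, of which 5.87% were higher and 5.34% lower in the knockout), Ankrd13a was 1 of 798 called lower. The fitted log2 fold change was more negative in 10 of those 798. The genotypes' libraries did not overlap in 40.2% of all tested genes, and within the family in Ankrd13a alone. Since the family was chosen with this contrast known, nothing is read from these counts for the 4 genes: 1 was called lower and 3 were not called. The fall took Ankrd13a from a level per length above that of 92.4% of the 13819 tested genes with a known transcript length in the wildtype to one above 43.2% in the knockout.

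Ankrd13c (Entrez 433667, chr3:157945420-158008034, plus strand), the member without UIMs, was the second transcript of the family in wildtype oocytes. Its counts were 1269, 1421 and 1398 in the knockout and 1527, 1216 and 1032 in the wildtype. This was 37.4, 38.0 and 37.0 CPM against 36.7, 46.8 and 47.2 CPM. The knockout libraries were nearly level, and wildtype replicate 1 lay with them while the other wildtype libraries were higher, so the groups overlapped. The fitted log2 fold change was -0.22 (SE 0.136, 95% interval -0.53 to 0.10). Without wildtype replicate 1 it was -0.33, and Ankrd13c was then among the 34.4% of tested genes that passed the threshold, from which nothing is read here.

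Ankrd13b and Ankrd13d, the other members with UIMs, were low, with 19 to 82 counts in a library. Ankrd13b (Entrez 268445, chr11:77470485-77490042, minus strand) had 47, 63 and 52 counts in the knockout and 82, 37 and 19 in the wildtype, that is 1.39, 1.68 and 1.38 CPM against 1.97, 1.43 and 0.869 CPM. Its knockout values all lay inside the range of the wildtype, with a log2 fold change of 0.03 (SE 0.312, 95% interval -0.69 to 0.75). Ankrd13d (Entrez 68423, chr19:4270180-4284053, minus strand) had 59, 57 and 51 counts in the knockout and 50, 38 and 43 in the wildtype, that is 1.74, 1.52 and 1.35 CPM against 1.20, 1.46 and 1.97 CPM. Here too the knockout lay inside the wildtype range, and the log2 fold change was 0.01 (SE 0.258, 95% interval -0.59 to 0.61).

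These intervals set how firmly the 3 other members can be described. A gain of Ankrd13b beyond a log2 fold change of 0.75, or of Ankrd13d beyond 0.61, lay outside them, and smaller changes in either direction were not resolved. At 1 count the CPM was between 0.0240 and 0.0457, so both genes rested on 19 to 82 reads per library. Leaving out wildtype replicate 1, which held the highest Ankrd13b, moved the log2 fold change of Ankrd13b to 0.35 and that of Ankrd13d to -0.15, and neither was called.

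**Figure D1:**
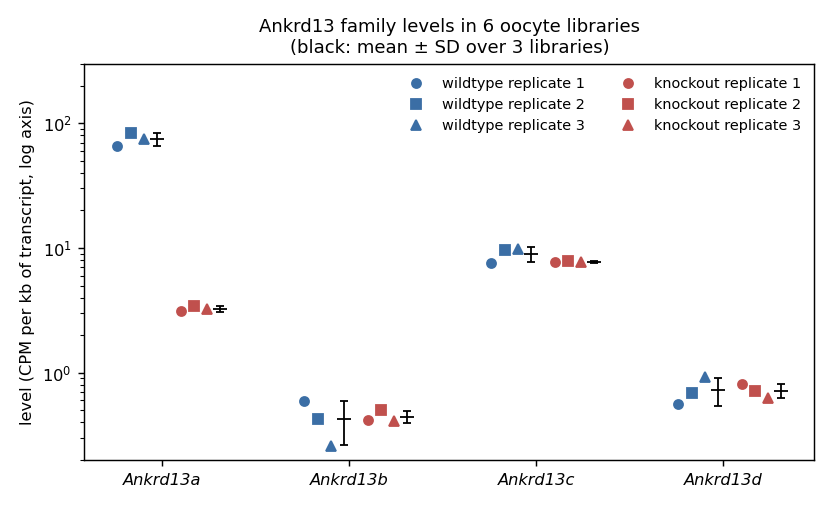
Level of each Ankrd13 gene in each library, as CPM per kilobase of longest transcript on a log axis, with wildtype libraries in blue, knockout libraries in red and a black mark at the mean ± SD of each genotype. Ankrd13a is the only member whose groups lie apart, with 3.11 to 3.44 in the knockout and 66.0 to 84.1 in the wildtype.

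To ask which paralogue the oocyte uses, levels were compared between genes per length, as CPM per kilobase of the longest annotated transcript (3717 bases for Ankrd13a, 3336 for Ankrd13b, 4836 for Ankrd13c and 2139 for Ankrd13d). In the wildtype the order was Ankrd13a, Ankrd13c, Ankrd13d, Ankrd13b. Ankrd13a stood at 75.0 ± 9.06 CPM per kilobase (SD, n = 3), Ankrd13c at 9.01 ± 1.24, Ankrd13d at 0.722 ± 0.182 and Ankrd13b at 0.426 ± 0.165. Ankrd13a was thus 8.36 ± 0.586 times as high as Ankrd13c over the 3 wildtype libraries, with a range of 7.68 to 8.71. The mean ratio was 8.18 without wildtype replicate 1. Ankrd13c was 12.5 times as high as Ankrd13d, while Ankrd13d and Ankrd13b overlapped in their ranges and were not apart beyond their spread.

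In the knockout the first places were exchanged. Ankrd13c led with 7.75 ± 0.0972 CPM per kilobase, followed by Ankrd13a with 3.25 ± 0.166, Ankrd13d with 0.719 ± 0.0909 and Ankrd13b with 0.444 ± 0.0523, and no neighbours in this order overlapped. Ankrd13c was 2.38 ± 0.102 times as high as Ankrd13a (range 2.28 to 2.49). Even after its fall, Ankrd13a was 4.53 times as high as Ankrd13d, the next member with UIMs. The order stayed as it was in both genotypes when levels were set per coding length or per mean transcript length, although the sizes moved: the ratio of Ankrd13a to Ankrd13c in the wildtype became 5.91 and 5.64, and that of Ankrd13c to Ankrd13a in the knockout 3.37 and 3.53. The ratio of Ankrd13c to Ankrd13d in the wildtype became 31.6 and 15.7, and that of Ankrd13a to Ankrd13d in the knockout 8.10 and 3.85. In the knockout the ratio of Ankrd13d to Ankrd13b went from 1.62 to 1.19 and 2.03. Per coding length the knockout ranges of these genes overlapped, so their separation depended on the length used.

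The summed family level, again in CPM per kilobase, was 74.7, 94.9 and 85.9 in the wildtype and 12.1, 12.5 and 11.9 in the knockout. The groups did not overlap, and the means differed 7.00-fold (85.2 ± 10.1 against 12.2 ± 0.301). The wildtype mean was 90.4 without wildtype replicate 1. Ankrd13a made up 88.3%, 88.6% and 87.3% of that sum in the wildtype libraries and 25.8%, 27.5% and 27.0% in the knockout libraries. The share of Ankrd13c went from 10.6 ± 0.686% to 63.7 ± 0.788%, that of Ankrd13d from 0.847 ± 0.194% to 5.91 ± 0.743% and that of Ankrd13b from 0.514 ± 0.250% to 3.65 ± 0.337%. These larger shares came from a smaller sum: the 3 genes other than Ankrd13a together stood at 8.73, 10.8 and 10.9 CPM per kilobase in the wildtype and at 8.96, 9.07 and 8.70 in the knockout. The groups overlapped in that remainder, through wildtype replicate 1.

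**Figure D2:**
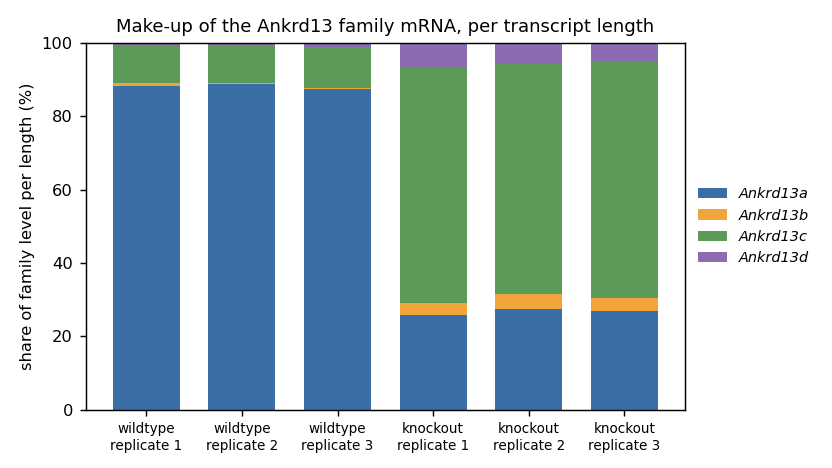
Share (%) of each of the 4 Ankrd13 genes in the family sum of CPM per kilobase, stacked for each library. Ankrd13a makes up 87.3% to 88.6% of the wildtype bars, and Ankrd13c makes up 62.8% to 64.2% of the knockout bars. The family sums behind the bars were 74.7 to 94.9 in the wildtype and 11.9 to 12.5 in the knockout.

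The start of Ankrd13a overlaps another gene on the other strand. The long non-coding RNA 4930515G01Rik (Entrez 67642, chr5:114773733-114774983, minus strand) shares 36 bases with the start of Ankrd13a and runs the other way, into Git2, with which it shares 856 bases. Its counts were 1, 2 and 10 in the knockout libraries and 97, 59 and 52 in the wildtype libraries, or 0.0295, 0.0534 and 0.265 CPM against 2.33, 2.27 and 2.38 CPM. The groups did not overlap, and the log2 fold change was -4.25 (SE 0.529, adjusted p = 0.00384 by edgeR's quasi-likelihood test). The gene was called lower in all 13 alternatives in which it was tested, with log2 fold changes from -5.67 to -3.83.

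Reads of an antisense partner cannot be told apart without strand, and no source used here states the strand setting of the counting. The lncRNA had 208 counts over the wildtype libraries and 13 over the knockout libraries, and the part of antisense reads in the counts of Ankrd13a was not tested. When the counts of the lncRNA were added to those of Ankrd13a, the log2 fold change of Ankrd13a was -4.52, beside -4.53 in the main fit. Ankrd13a had 10217, 8118 and 6092 counts in the wildtype, so so few added counts could not move the value far. The addition does not show whether antisense reads are among the counts of Ankrd13a. The part of Ankrd13a reads in the counts of the lncRNA was not tested either. Git2, an ARF GTPase-activating protein whose gene lies on the minus strand 359 bases from the start of Ankrd13a, had 116, 131 and 131 CPM in the knockout and 87.6, 139 and 133 CPM in the wildtype. Its groups overlapped, with a log2 fold change of 0.07 (SE 0.183), or -0.11 without wildtype replicate 1. On the other side, 1500011B03Rik, 2374 bases from the end of Ankrd13a, was higher in the knockout, at 101 to 104 CPM against 61.7 to 72.1 CPM (log2 fold change 0.59, SE 0.113, adjusted p = 0.0182 by edgeR's test). That call was lost without any 1 of the 3 knockout libraries and without wildtype replicate 2, with log2 fold changes from 0.53 to 0.64 over the alternatives. In those settings 2.35% to 2.64% and 5.9% of all tested genes were called.

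Within 200 kb of the 4 genes the annotation holds 46 other genes, of which 36 were tested. In the knockout 5 of these were called higher and 2 lower, beside 5.87% higher and 5.34% lower over all tested genes, and their median log2 fold change was 0.02, against -0.00 over all tested genes. Around Ankrd13a, 1 of 12 tested neighbours was higher (1500011B03Rik) and 1 lower (4930515G01Rik). Without wildtype replicate 1 the counts were 9 higher and 4 lower of 36, where 16.7% and 17.7% of all tested genes (34.4% in all) were called. The median over the 36 neighbours was then 0.08, against 0.01 over all tested genes. Without any 1 knockout library 3 were called, where 2.35% to 2.64% of all tested genes were.

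**Figure D3:**
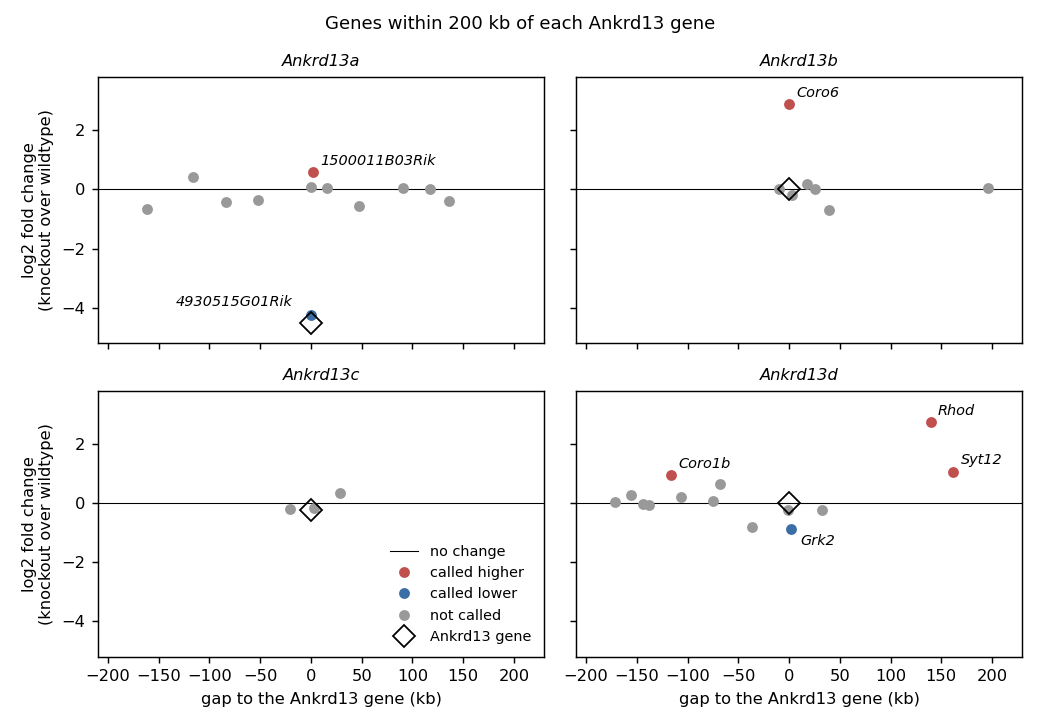
Log2 fold change (knockout over wildtype) of tested genes within 200 kb of each Ankrd13 gene against the gap to that gene in kilobases, with the Ankrd13 gene itself as an open diamond at 0. Next to Ankrd13a at -4.53 lies 4930515G01Rik at -4.25, while Git2 lies at 0.07; Coro6, beside Ankrd13b, lies at 2.90.

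Around Ankrd13b, 1 of 7 tested neighbours was called, beside 11.2% of all tested genes. Coro6, which encodes a coronin, a regulator of actin filaments, ends where Ankrd13b ends, with 0 bases between them. It had 1.06, 1.76 and 1.03 CPM in the knockout and 0.144, 0.193 and 0.183 CPM in the wildtype, so it was low in all libraries and its groups did not overlap. Its log2 fold change was 2.90 (SE 0.383, adjusted p = 0.00487 by edgeR's test), and it was called higher in all 13 alternatives in which it was tested. Git1, paralogue of Git2, lies 3245 bases from Ankrd13b and had a log2 fold change of -0.20 (SE 0.196). Its log2 fold change was 0.04 without wildtype replicate 1. The 3 tested neighbours of Ankrd13c included Cth, which makes cysteine from cystathionine (log2 fold change -0.20), and the splicing factor Srsf11 (-0.18), and were not called. Srsf11 had a log2 fold change of 0.03 without wildtype replicate 1.

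The surroundings of Ankrd13d held 14 tested neighbours, of which 3 were called higher and 1 lower, beside 5.87% and 5.34% of all tested genes. With so few neighbours, nothing is read from these counts about the locus. The coronin gene Coro1b was at 97.8 to 109 CPM in the knockout and 48.4 to 56.7 CPM in the wildtype (log2 fold change 0.94, SE 0.120, adjusted p = 0.00408 by edgeR's test), and was called in all 14 alternatives. Rhod, a small GTPase of endosomes, was at 1.46 to 1.66 against 0.0385 to 0.408 CPM (log2 fold change 2.74), and Syt12, a synaptotagmin, at 5.16 to 5.62 against 1.92 to 3.70 CPM (1.07). Grk2, a kinase of G protein-coupled receptors 1945 bases from Ankrd13d, fell from 5.40 ± 0.871 to 2.97 ± 0.306 CPM (log2 fold change -0.87). Ssh3, a cofilin phosphatase 946 bases away on the other side, had a log2 fold change of -0.22 (SE 0.183). The calls of Rhod, Syt12 and Grk2 were lost without any 1 knockout library, and those of Syt12 and Grk2 also without wildtype replicate 3, while their log2 fold changes stayed between 2.29 and 3.86, 0.87 and 1.41, and -0.97 and -0.72. In those settings 2.35% to 2.64% and 6.02% of all tested genes were called.

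The neighbourhoods of the family hold further pairs of paralogues, whose values can be set side by side. Git2 beside Ankrd13a and Git1 beside Ankrd13b differed by 0.07 and -0.20 on the log2 scale, or by -0.11 and 0.04 without wildtype replicate 1. The coronin genes near Ankrd13b and Ankrd13d, Coro6 and Coro1b, were both higher in the knockout. The slingshot phosphatases Ssh2, near Ankrd13b, and Ssh3, near Ankrd13d, had log2 fold changes of 0.02 and -0.22. Ssh2 was named after its values were seen, to complete the set of paralogues.

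The other genes of the pathway in which the UIM-bearing members act were then described list by list, each read against the 11.2% called over all tested genes, or, without wildtype replicate 1, against 34.4%. Over all tested genes, 2.35% to 2.64% were called without any 1 knockout library, and 5.9% and 6.02% without wildtype replicate 2 and 3. A call lost in those settings is read beside these lower shares. Of 16 ubiquitin-binding adaptors of endocytosis, 14 were tested, and 1 was called: Stam2, a subunit of the complex that gathers ubiquitinated cargo on endosomes. Stam2 was at 46.4, 45.8 and 41.7 CPM in the knockout and 23.7, 32.7 and 30.8 CPM in the wildtype, with no overlap (log2 fold change 0.62, SE 0.152, adjusted p = 0.0394 by edgeR's test). Over the alternatives its log2 fold change lay between 0.49 and 0.71, and the call was lost when any 1 library other than wildtype replicate 1 was left out. The median over the list was 0.21, or 0.11 without wildtype replicate 1. The adaptors highest in the oocyte, Epn2 (epsin, 584 against 612 CPM) and Hgs (partner of Stam2, 232 against 201 CPM), had log2 fold changes of -0.07 and 0.21. With wildtype replicate 1 left out, 4 of the 14 were called, all higher, beside 34.4% of all tested genes.

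Of 14 listed genes for proteins with UIMs outside the family, 13 were found and tested, and 1 was called. The deubiquitinase gene Usp25 was at 2.92 to 3.93 CPM in the knockout and 0.616 to 1.68 CPM in the wildtype (log2 fold change 1.53, SE 0.341, adjusted p = 0.0298 by edgeR's test). This call too was lost when any 1 library other than wildtype replicate 1 was left out, with log2 fold changes from 1.24 to 1.99 over the alternatives. The most abundant of these genes were Rnf114, a ubiquitin ligase (989 against 862 CPM, log2 fold change 0.20), and Psmd4, the proteasome's ubiquitin receptor (485 against 460 CPM, 0.08). The log2 fold change of Rnf114 was -0.03 when wildtype replicate 1 was left out. The list's median was 0.19, or 0.10 without wildtype replicate 1. With that library left out, 3 of 13 genes of the list were called higher and 3 lower, beside 34.4% of all tested genes called.

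Of 17 genes for VCP and other partners of ANKRD13 proteins, 14 were tested and edgeR called 0 of them. DESeq2 called 2 and limma-voom 0, where edgeR, DESeq2 and limma-voom called 1676, 2671 and 1663 of all genes. The 3 at an unadjusted p under 0.05 are given without the share over all genes, so nothing is read from them. The list's median log2 fold change was 0.13, or -0.01 without wildtype replicate 1. The inhibitor of apoptosis Birc3 (683 against 691 CPM) and the VCP cofactor Plaa (304 against 252 CPM) were the most abundant, with log2 fold changes of -0.02 and 0.27. These were -0.25 and -0.04 with wildtype replicate 1 left out. Partners named after their values were seen were Egfr, the receptor whose internalisation the family acts on (164 against 156 CPM, 0.07), Vcp (23.4 against 15.1 CPM, 0.64), its cofactor Ubxn6 (20.6 against 21.3 CPM, -0.05) and Ripk1 (56.5 against 63.9 CPM, -0.18). For Egfr, Vcp, Ubxn6 and Ripk1 the log2 fold changes without wildtype replicate 1 were -0.10, 0.36, 0.17 and -0.38. Cav1 and Cav2, the caveolins, were at no more than 0.117 CPM on average in a genotype and were not tested. Leaving out wildtype replicate 1 gave 3 of 14 genes called higher and 3 lower in this list, beside 34.4% of all tested genes called.

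The complexes that carry ubiquitinated receptors into endosomal vesicles, ESCRT and VPS4, had 27 tested genes of 28 listed. EdgeR called 0 of them, DESeq2 3 and limma-voom 0, where these methods called 1676, 2671 and 1663 of all genes. The 5 at an unadjusted p under 0.05 are given without the share over all genes, so nothing is read from them. The median log2 fold change was 0.09, or 0.04 without wildtype replicate 1. Tsg101, which recognises ubiquitinated cargo, was at 223 against 212 CPM (0.07), and Vta1, a VPS4 cofactor, at 217 against 196 CPM (0.15). Leaving out wildtype replicate 1 gave 4 of 27 genes called higher and 1 lower, beside 34.4% of all tested genes called.

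Endosomal ubiquitin ligases and deubiquitinases held 2 called genes among 18 tested of 19 listed, and both fell. Uchl3, a ubiquitin C-terminal hydrolase, was at 38.5, 38.8 and 39.8 CPM in the knockout and 73.4, 77.6 and 79.4 CPM in the wildtype. The libraries were tight within each genotype and far apart between them (log2 fold change -0.98, SE 0.109, adjusted p = 0.00281 by edgeR's test), and Uchl3 was called lower in all 14 alternatives. The ligase Smurf2 was at 131 to 140 CPM against 193 to 229 CPM (log2 fold change -0.62, SE 0.116, adjusted p = 0.0171). Its call was lost without any 1 knockout library and without wildtype replicate 3, with log2 fold changes from -0.68 to -0.55 over the alternatives. The median of the list was -0.06, or -0.17 without wildtype replicate 1. Nedd4l and Usp9x, the most abundant ligase and deubiquitinase, had log2 fold changes of -0.06 and -0.02. These were -0.27 and -0.25 without wildtype replicate 1. When wildtype replicate 1 was left out, 3 of 18 genes were called higher and 6 lower, beside 34.4% of all tested genes.

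In the list for the clathrin coat and early endosome, 27 of 28 genes were tested and 1 was called. Synj1, a phosphoinositide phosphatase that uncoats clathrin vesicles, was at 97.3 to 107 CPM in the knockout and 131 to 142 CPM in the wildtype (log2 fold change -0.43, SE 0.108, adjusted p = 0.0436 by edgeR's test). That call was lost in 9 of 14 alternatives, among them without any 1 library other than wildtype replicate 1, with log2 fold changes from -0.47 to -0.40. Rab11a, of recycling endosomes, and Cltc, the clathrin heavy chain, had log2 fold changes of -0.02 and 0.13, and the list's median was 0.01. The values of Rab11a and Cltc were -0.12 and -0.07 without wildtype replicate 1, and the list's median was then -0.04. When wildtype replicate 1 was left out, 4 of 27 genes were called higher and 6 lower, a share near the 34.4% of all tested genes.

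**Figure D4:**
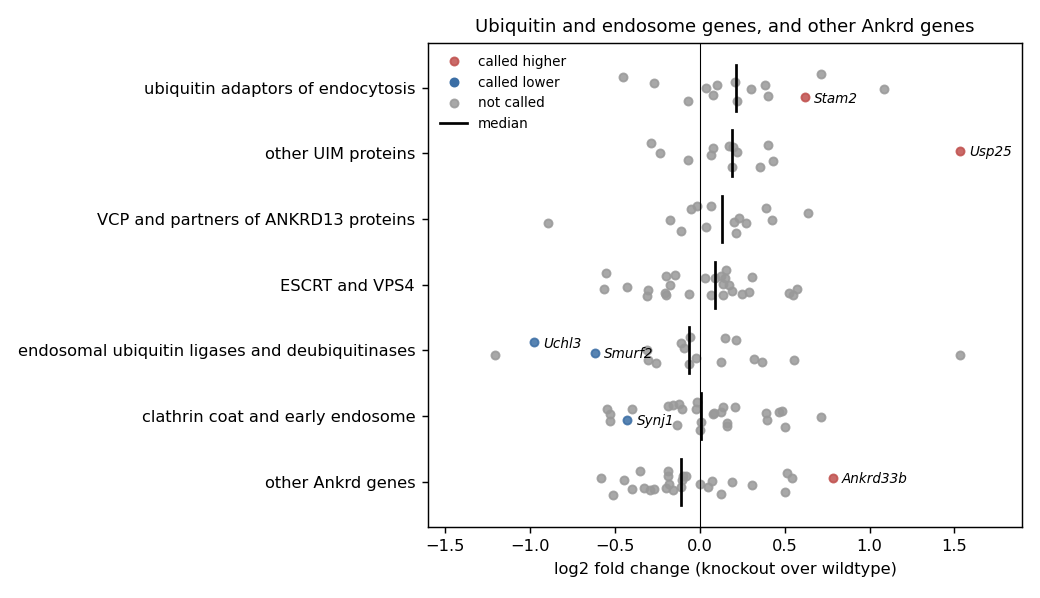
Log2 fold change (knockout over wildtype) of each tested gene in 6 lists of ubiquitin and endosome genes and in the other Ankrd genes, with called genes in colour and named and a bar at each list's median. Medians lie between -0.11 and 0.21, and the called genes lie between -0.98 (Uchl3) and 1.53 (Usp25).

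Outside the family, 42 genes carry a symbol that begins with Ankrd, and 27 of them were tested. In this list 1 was called, beside 11.2% of all tested genes. This was Ankrd33b, at 74.4 to 94.6 CPM in the knockout and 45.6 to 52.0 CPM in the wildtype (log2 fold change 0.78, SE 0.132, adjusted p = 0.0118 by edgeR's test). Its call was lost without knockout replicate 2 and without knockout replicate 3, with log2 fold changes from 0.69 to 0.87 over the alternatives. The most abundant of these genes were Ankrd17 (253 against 345 CPM, log2 fold change -0.45) and Ankrd44, a subunit of a phosphatase 6 complex (203 against 230 CPM, -0.18). Ankrd17 was at 516 CPM in wildtype replicate 1 and at 252 and 269 CPM in the other wildtype libraries. With that library left out, the log2 fold changes of Ankrd17 and Ankrd44 were -0.04 and -0.29. The log2 fold changes of the list ran no lower than -0.58 in Ankrd35, beside -4.53 in Ankrd13a, and had a median of -0.11. Without wildtype replicate 1 the median was -0.07, and 2 of 27 were called higher and 4 lower, beside 34.4% of all tested genes.

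The genes most like each member were taken by Pearson's r of log2 CPM over the 6 libraries, among 7964 or 7965 genes of at least 10 CPM, as a description. For Ankrd13a they were Tirap (0.999), Phactr3 (0.999), Septin11 (0.999), Uchl3 (0.998) and Cenpn (0.998). All 5 had negative log2 fold changes, and r over these 6 libraries includes the split between genotypes. The sizes differed widely: the log2 fold change was -0.46 in Tirap, -0.48 in Phactr3, -0.98 in Uchl3, -1.20 in Cenpn and -6.64 in Septin11, which lies on chromosome 5 as Ankrd13a does. For Ankrd13c the genes were Rars2 (0.999), Fanci (0.995), Lrrc14 (0.995), Fut11 (0.994) and Zfp182 (0.993).

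Ankrd13b was most like Ribc1 (0.975), Camta1 (0.974), Nmt1 (0.966), Sult5a1 (0.951) and Ccdc12 (0.942), and Ankrd13d most like Ahcyl1 (0.984), Map1lc3b (0.980), Lpar1 (0.980) and Rangap1 (0.972). The log2 fold changes of these 9 genes lay between -0.05 and 0.04. Since Ankrd13b and Ankrd13d had only 19 to 82 counts in a library, counting error enters these r values, and wildtype replicate 1 held the highest value of Ankrd13b.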

How the data were processed

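Counts of reads per gene, which the authors deposited as 1 table of whole numbers per library, were used as raw counts. STAR 2.7.11a, featureCounts 2.0.3 and GRCm38.p6 (mm10) are named, with no role, per the submitters' processing notes. Not given in the sources used here are the annotation counted on, whether strand was used, and what was done with reads of several hits. Per the labels' protocols, cDNA was made with a low-input SMARTer kit, libraries with NexteraXT, and sequencing was single-end.

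Of 27179 Entrez identifiers, 25275 were named from a RefSeq table of that build and 18 from GENCODE M21 metadata, and 1886 stayed unnamed. Coordinates of genes are those of the RefSeq table. Transcript lengths came from GENCODE M21.

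EdgeR 4.0.16 in R 4.3.3 kept genes by filterByExpr (minimum count 10), scaled libraries by TMM and tested genotype by its quasi-likelihood F test, adjusted after Benjamini and Hochberg over all 14957 tested genes, which held 99.9% or more of each library. Called means an adjusted p under 0.05. SE is the size of the log2 fold change over the root of F, and intervals are 95%. CPM use TMM-scaled library sizes. The fit was tested on simulated data, and no pair of libraries agreed within sampling noise.

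The members, the lists and the rules were chosen with earlier results of these data known. The text names the members, genes that overlap them, called or nearest tested neighbours within 200 kb, up to 6 called and the 2 most abundant other genes of each list, and the 5 genes most like each member (clone names and pseudogenes left out of the last, and 1 gene like Ankrd13d not reported here). Levels are ranked per length, and ranges that do not overlap are called apart. Alternatives were DESeq2 1.42.0 (test, and size factors in edgeR), library totals, upper quartile scaling, no filter, 5 CPM in 3 libraries, limma-voom 3.58.1, a replicate block, other lengths, and each library left out. A further alternative added the counts of 4930515G01Rik to those of Ankrd13a.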

Additional observations from a re-analysis of the deposited data

How the results depend on the processing

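Of 186 recomputed values, 112 were graded the same as in the main fit. For counts of called genes that grade allowed shifts, such as 10 neighbours by DESeq2 beside 7. Length ratios that kept their direction but moved in size were not among the 112. The log2 fold change of Ankrd13a lay between -4.61 and -4.44 when each library was left out and between -4.54 and -4.51 under the other settings. Leaving out 1 library at a time gave -0.20 to 0.35 for Ankrd13b, -0.33 to -0.15 for Ankrd13c and -0.15 to 0.22 for Ankrd13d. The sign turned for Ankrd13b without knockout replicate 2 (-0.10) and without wildtype replicate 3 (-0.20), and for Ankrd13d without knockout replicate 1 (-0.08), knockout replicate 2 (-0.01), wildtype replicate 1 (-0.15) and wildtype replicate 2 (-0.02); both have few counts, and the cause was not tested. Ankrd13b and Ankrd13d were not tested under the filter of 5 CPM in 3 libraries.

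Over all genes, 1676 were called, 357 to 5199 when 1 library was left out (the most without wildtype replicate 1), 1038 under the filter of 5 CPM in 3 libraries, where fewer genes are tested, and 2671 by DESeq2. With 1 library left out, 2.35% to 34.4% of all tested genes were called. The counts then ranged over 0 to 4 adaptors (14 tested in the main fit), 0 to 6 other UIM proteins (13), 0 to 6 VCP partners (14) and 0 to 5 ESCRT genes (27). They also ranged over 1 to 9 ligases and deubiquitinases (18), 0 to 10 clathrin and endosome genes (27), 0 to 6 other Ankrd genes (27) and 3 to 13 neighbours (36). The highest count of each list came without wildtype replicate 1, where 34.4% of all tested genes were called. Library totals gave 1 ESCRT, 3 ligase and 0 clathrin genes, with 1505 called over all genes. Upper quartile scaling gave 2 adaptors, 1 ESCRT, 3 ligase and 0 clathrin genes, with 1571 called over all genes. No filter gave 2 adaptors and 0 clathrin genes, with 1603 called over all genes. The filter of 5 CPM gave 0 other UIM proteins, 1 ESCRT gene and 3 neighbours. DESeq2, with its 2671 over all genes, called 2 adaptors, 2 VCP partners, 3 ESCRT genes, 4 ligases and deubiquitinases, 4 clathrin genes and 10 neighbours. Limma-voom called 2 adaptors, with 1663 called over all genes. Coding length and mean transcript length gave 5.91 and 5.64 for the ratio of Ankrd13a to Ankrd13c in the wildtype, and 3.37 and 3.53 for that of Ankrd13c to Ankrd13a in the knockout. The cause of these shifts was not tested.

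Same-numbered libraries correlated at -0.0583, 0.00997 and -0.0935 in their deviations from the group means. None of the 3 knockout libraries correlated best with its own number. With 3 libraries in a group and wildtype replicate 1 apart, this cannot show whether same-numbered libraries share an origin. With the replicate block, 537 genes were called, with 0 adaptors, 0 other UIM proteins, 1 ligase or deubiquitinase, 0 clathrin genes, 0 other Ankrd genes and 3 neighbours. Ankrd13b and Ankrd13d had 19 to 82 counts in a library, and no molecular identifiers are described.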
